A study of Mus musculus with 12 samples.

Results

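The genes described here encode the plasma clotting factors prothrombin (F2), factor V (F5), factor VII (F7), factor IX (F9), factor X (F10), factor XI (F11) and factor XII (F12), and the 3 chains of fibrinogen (Fga, Fgb and Fgg). They were chosen by symbol, and each matched 1 Ensembl identifier, so that they were 10 of the 55414 genes in the table. They were measured by RNA sequencing of poly(A) RNA from the inferior vena cava (IVC) of C57BL/6J mice that were 10 weeks old, wild-type, and collected on postoperative day 7. In the AVF group, an infrarenal aortocaval fistula was made by needle puncture from the aorta into the IVC, and the sham group had the same operation without the puncture. Each group had 6 mice, 3 female and 3 male, with 1 library per mouse. The study divided the AVF group by its expression into the OUT group (sample #05, a male, and sample #09, a female) and the nAVF group (samples #04 and #06, males, and #07 and #11, females). The sham samples were #16, #17 and #18 (males) and #19, #22 and #23 (females). The vein was flushed and taken as whole tissue, so the cells were not separated.

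Plasma clotting factors are made mainly by hepatocytes and secreted into the blood as inactive precursors. Tissue factor on cells outside the bloodstream binds factor VIIa, which activates factors IX and X, and factor Xa with its cofactor factor Va turns prothrombin into thrombin. Thrombin cuts fibrinogen, a protein built from the alpha, beta and gamma chains, into fibrin. Factors XII and XI belong to the contact pathway, which also leads to factor IX. Factor V is also found in platelets, and in mice it is made by megakaryocytes as well as by the liver. In the liver the factors HNF1 and C/EBP are known to act on fibrinogen promoters.

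The 3 fibrinogen genes lie side by side on chromosome 3 of GRCm39, with Fgg at chr3:82915030-82922363 on the + strand, Fga at chr3:82933383-82940934 on the + strand and Fgb at chr3:82947448-82957170 on the - strand. Their upstream sequences are shown because the 3 genes had the highest levels of the 10 in the OUT group and moved together. The windows are the 250 bases before the start given by RefSeq, located in GRCm39 by exact match, and are printed only as far as they lie outside the gene as GENCODE annotates it. Capitals mark TTGCAA, which is part of the site of C/EBP factors, and ATTAAC, the reverse complement of GTTAAT, which is one side of the HNF1 site.
Fga, chr3:82933210-82933382, + strand: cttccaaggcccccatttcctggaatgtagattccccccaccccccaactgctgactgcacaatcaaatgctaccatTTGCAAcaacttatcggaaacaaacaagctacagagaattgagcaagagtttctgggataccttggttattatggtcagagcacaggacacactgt
Fga, chr3:82933405-82933434, + strand: ccaagggtgatgATTAACctcctgccggtt
Fgb, chr3:82957171-82957420, - strand: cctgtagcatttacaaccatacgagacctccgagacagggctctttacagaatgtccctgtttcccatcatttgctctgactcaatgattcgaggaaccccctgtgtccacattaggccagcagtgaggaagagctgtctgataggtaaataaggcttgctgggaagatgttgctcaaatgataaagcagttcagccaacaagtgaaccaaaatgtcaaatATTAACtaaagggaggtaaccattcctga
Fgg, chr3:82914781-82915029, + strand: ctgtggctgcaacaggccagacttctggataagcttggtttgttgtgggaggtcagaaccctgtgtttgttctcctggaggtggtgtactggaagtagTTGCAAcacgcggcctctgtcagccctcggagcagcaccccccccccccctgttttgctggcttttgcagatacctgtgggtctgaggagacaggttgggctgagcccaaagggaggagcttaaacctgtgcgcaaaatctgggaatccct

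The second Fga stretch lies before the RefSeq start but inside the longer GENCODE gene, so only 30 bases of it are given. GTTAAT, searched on both strands, was found in 2 of the 10 windows, in Fga from 43 to 38 bases and in Fgb from 29 to 24 bases before the start, and it was in 6.52% of 27025 RefSeq windows of the same length. TTGCAA, which reads the same on both strands, was found in 2 of the 10 windows, in Fga from 173 to 168 bases and in Fgg from 152 to 147 bases before the start, and in 5.33% of all windows. CAAAGTC, part of the HNF4 site, and TATAAA, the TATA box, were in 0 of the 10 windows, and in 3.8% and 13% of all windows. No 2 of these motifs overlapped. These matches describe letters in a window and no binding was measured.

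The libraries held 15177854 to 22717370 counts after rounding. In sample #07, 46% of all counts were from ribosomal RNA, so 8194438 were left, and the share elsewhere was 2.39% to 12.6%. Levels are given as normalized CPM (counts per 1000000), in which each count is divided by the TMM-adjusted size of its library (TMM, trimmed mean of M values), and 3 counts in a library, taken as the limit of detection, came to 0.127 to 0.324 CPM. Smooth muscle markers summed to 2305 to 4904 CPM and endothelial markers to 1277 to 2154 CPM over the 12 libraries, so smooth muscle and endothelial RNA was present in each. Without Cyp2e1, which was high everywhere (528 to 2703 CPM), the hepatocyte list (20 genes such as Alb, the gene of albumin) summed to 3471 CPM in sample #05 and 9605 CPM in sample #09, against 11.2 to 27 CPM in the other 10 libraries.

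All 10 genes were higher in both OUT samples than in any nAVF or sham sample, and for 7 of them the pooled level was more than 100-fold that of either other group or the gene had no count outside the OUT group. Over the 22163 genes with more than 12 counts, both OUT samples were above every nAVF sample for 7.76%, above every sham sample for 11.3%, and above all 10 for 3.56%. The OUT group was drawn from the expression of these same libraries, these genes included, so the difference is described here and was not tested. In whole tissue, more cells of a type and more RNA per cell cannot be told apart.

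**Figure D1:**
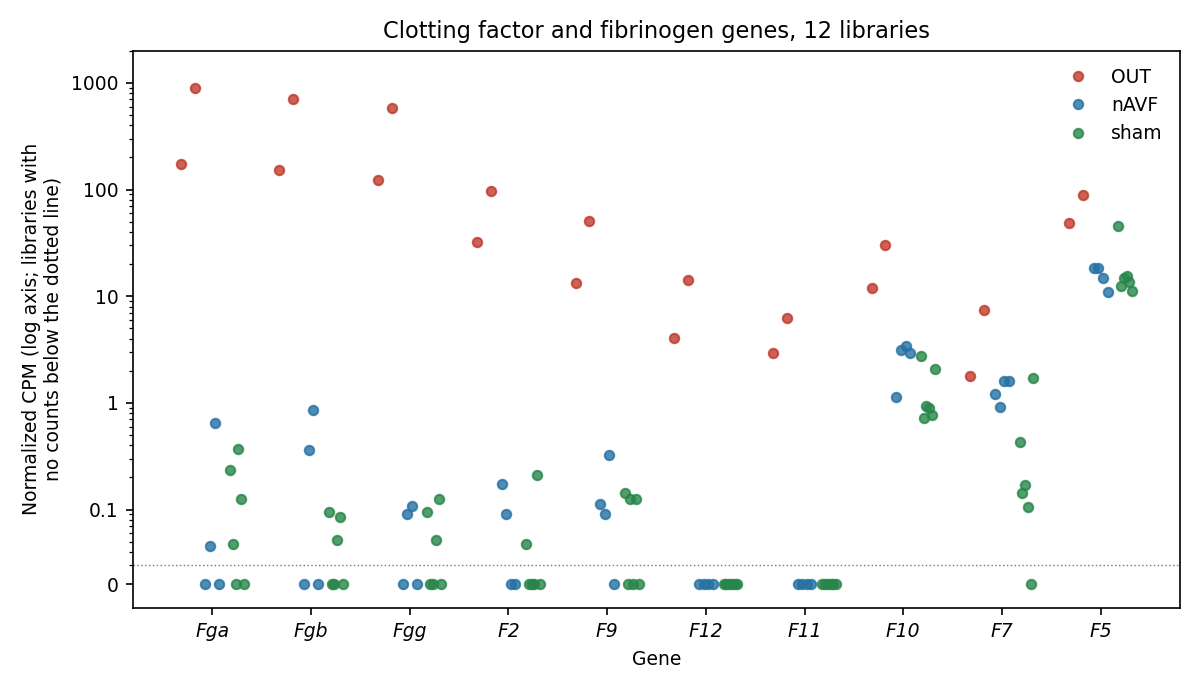
Normalized CPM on a log axis of the 10 genes in the 2 OUT, 4 nAVF and 6 sham libraries, each point 1 library and libraries with no counts drawn below the dotted line. The OUT points lie above all others for each gene, and F5, F7 and F10 are the genes with levels above background in most other libraries.

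Fibrinogen had the highest levels. Fga, the alpha chain, stood at 175 CPM in sample #05 and 896 CPM in sample #09, which are 3596 and 16343 counts. In the nAVF group it had 0, 1, 6 and 0 counts in samples #04, #06, #07 and #11, and 0 to 7 counts in the sham group. The 2 OUT samples held nearly all of the Fga counts, and the nAVF and sham groups overlapped. The ratio of pooled normalized counts in OUT to those in nAVF was 5152 (95% interval 2500 to 12816) and to those in sham 4148 (2554 to 7258). These intervals are exact and cover counting error only, not the spread between mice.

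Fgb, the beta chain, was at 151 and 709 CPM in samples #05 and #09. Its counts in samples #04, #06, #07 and #11 were 0, 8, 8 and 0, and in the sham group 0 to 2. Samples #06 and #07 were thus above the sham samples, at 0.362 and 0.863 CPM. The ratio of OUT to nAVF was 1811 (1115 to 3169) and that of OUT to sham 10664 (4569 to 32849). No sham library passed the limit of detection, so the size of the second ratio is uncertain beyond its interval.

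Fgg, the gamma chain, was at 123 and 586 CPM in samples #05 and #09, with 0, 2, 1 and 0 counts in the nAVF samples and 0 to 3 counts in the sham samples. No library outside the OUT group passed 3 counts. The ratio of OUT to nAVF was 7971 (2727 to 38658) and that of OUT to sham 7334 (3369 to 19989). Both rest on denominators at or under the limit of detection, so their size is uncertain beyond the counting interval. Set on the length of the merged exons, the chains were alike in level: in sample #09 Fga was at 280, Fgg at 242 and Fgb at 185 CPM per kb, and in sample #05 at 54.6, 50.9 and 39.5 CPM per kb, the same order in both.

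F2, the precursor of thrombin, on chromosome 2, was at 32 CPM in sample #05 and 96.8 CPM in sample #09, or 657 and 1764 counts. Samples #04, #06, #07 and #11 had 3, 2, 0 and 0 counts, and the sham samples 0 to 5 with a median of 0. Only sham sample #22 passed 3 counts outside the OUT group. The ratio of OUT to nAVF was 876 (375 to 2700) and to sham 1343 (616 to 3663). No nAVF library passed the limit of detection, so the size of the first ratio is uncertain beyond its interval.

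F9, the factor missing in haemophilia B, on chromosome X, was at 13.2 and 50.8 CPM in samples #05 and #09, or 272 and 927 counts. The nAVF samples held 2, 2, 3 and 0 counts, and the sham samples 0 to 3. No library of either group passed the limit of detection, so the size of the ratios is uncertain beyond the counting intervals. The ratio of OUT to nAVF was 310 (150 to 772) and to sham 443 (233 to 972). Among F2, F9 and the fibrinogen genes, these were the lowest ratios.

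The contact factors F12, on chromosome 13, and F11, on chromosome 8, had no count in any nAVF or sham sample. F12 had 83 counts in sample #05 and 259 in sample #09, 4.04 and 14.2 CPM. F11 had 60 and 113 counts, 2.92 and 6.2 CPM. Against 3 counts per library, the mean of F12 in the OUT group was at least 47.3-fold higher than in nAVF and at least 65-fold higher than in sham, and that of F11 at least 23.6-fold and 32.5-fold higher. F11 was the lowest of the 10 in sample #09 set on length, at 2.16 CPM per kb.

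Of the 10 genes, F5, F7 and F10 had more than 8 counts in a library outside the OUT group. F5, the cofactor of factor Xa, on chromosome 1, was at 48.2 and 88.1 CPM in samples #05 and #09. It was at 18.3, 18.2, 14.7 and 11 CPM in samples #04, #06, #07 and #11, and at 11.3 to 45.2 CPM with a median of 14.2 in the sham group. Sham sample #16 was at 45.2 CPM and the next sham sample at 15.5, so that #16 came close to OUT sample #05. F5 was the highest of the 10 genes per length in each of the 10 nAVF and sham libraries, at 1.33 to 5.48 CPM per kb.

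F10, which as factor Xa makes thrombin, was at 12 and 29.9 CPM in samples #05 and #09. It was at 1.14, 3.13, 3.45 and 2.91 CPM in samples #04, #06, #07 and #11, and at 0.716 to 2.74 CPM with a median of 0.91 in the sham group. All nAVF samples except #04 were above every sham sample, by a narrow margin over sham sample #16. The ratio of OUT to nAVF was 7.83 (6.66 to 9.24) and to sham 15.2 (12.9 to 18.1), against 4.3 (4.01 to 4.62) and 3.57 (3.38 to 3.78) for F5.

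F7, which starts coagulation with tissue factor, lies just before F10 on the same strand, F7 at chr8:13076002-13085809 and F10 at chr8:13087293-13106676. It was at 1.8 and 7.35 CPM in samples #05 and #09, and at 1.2, 0.906, 1.62 and 1.6 CPM in samples #04, #06, #07 and #11. In the sham group it ranged from 0 to 1.7 CPM with a median of 0.156, and sample #23 alone was above 0.426. Sample #05 thus exceeded sham sample #23 and nAVF sample #07 by little, and sample #09 stood apart. The ratio of OUT to nAVF was 3.44 (2.65 to 4.49) and to sham 10.7 (7.85 to 14.9).

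Per length, the order of the mean levels in the OUT group was Fga, Fgg, Fgb, F2, F9, F5, F10, F12, F7 and F11, from 167 to 1.59 CPM per kb. Within each of the 2 samples, Fga, Fgg, Fgb and F2 ranked 1 to 4 in this order, and F12 ranked 8. F5 ranked 5 in sample #05 and 7 in sample #09, and the order of F7 and F11 also differed between them. Across the samples, ranges of neighbours overlapped except for Fgb, at 39.5 and 185 CPM per kb, and F2, at 6.66 and 20.1 CPM per kb. The spread was wide, with 167 ± 159 CPM per kb (SD, n = 2) for Fga. Outside the OUT group the order was another one, with F5 at a mean of 2.12, F10 at 0.683 and F7 at 0.416 CPM per kb and the other 7 at 0.0458 or below. The merged exons of F2 (4.8 kb) include those of several annotated transcripts, and a shorter transcript would give it a higher level per kb.

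Sample #09 exceeded sample #05 for each of the 10 genes, and the fibrinogen chains differed most. The ratio of normalized CPM was 5.12 for Fga (counting interval 4.94 to 5.31), 4.75 for Fgg (4.55 to 4.97) and 4.69 for Fgb (4.51 to 4.88). It was 3.02 for F2 (2.76 to 3.31), the same value as for Alb (2.98 to 3.06), and 3.84 for F9, 3.51 for F12, 2.5 for F10 and 2.12 for F11. F5 had the smallest ratio, 1.83 (1.69 to 1.98), and F7 had a wide interval around 4.08 (2.82 to 6.04). The intervals of the 3 fibrinogen chains did not overlap those of F2, F5, F9, F10 or F11.

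The median ratio over the 10 genes was 3.67, against 3.16 over 14 other coagulation genes of the liver, 2.64 over the 20 genes of the hepatocyte list with more than 3 counts in both samples, and 1 over the 17290 such genes in all. In the hepatocyte list the ratio ran from 1.03 for Fabp1, a carrier of fatty acids, to 4.61 for Apoc3, an apolipoprotein, so that the 2 OUT samples did not differ by 1 common factor. Scaled to the hepatocyte list instead of to library size, the median of the 10 genes was 0.58 on the log2 scale, and without Cyp2e1 0.41, in place of 1.88. This is 1 library against 1, with no replicate check, and the sex of the 2 mice differed as well.

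**Figure D2:**
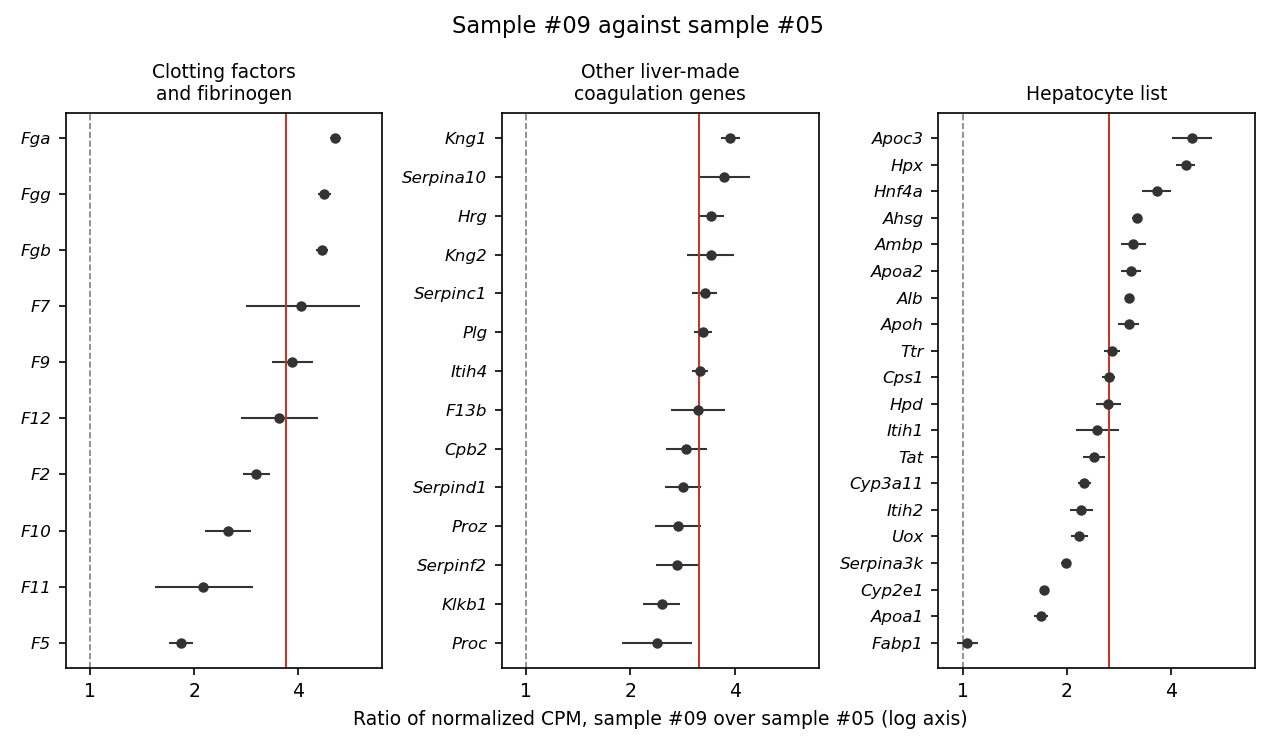
Ratio of normalized CPM in sample #09 to sample #05 on a log axis, each point 1 gene with its exact 95% counting interval and the red line the median of the panel. Fga, Fgg and Fgb have the highest ratios of the first panel, at 4.69 to 5.12, and F5 the lowest, at 1.83.

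Other markers moved with these genes. Hnf4a, a transcription factor of hepatocytes, had 568 and 1837 counts in samples #05 and #09, and 0 or 1 in each other library. Clec4f, a marker of Kupffer cells, the macrophages of the liver, had 20 and 147 counts there and 0 elsewhere. Vsig4 and Timd4, on the same list of other liver cells as Clec4f, overlapped with the other libraries. Vsig4 was at 2.48 and 8.5 CPM in samples #05 and #09, and reached 6.05 CPM in nAVF. Timd4 was at 2.09 and 4.72 CPM, against 1.29 to 6.52 CPM in nAVF and up to 4.96 CPM in sham. In the hepatocyte list 19 of 21 genes were higher in both OUT samples than in all other libraries, as were 4 of 9 genes of other liver cells. So were 0 of 7 genes of macrophages and 0 of 7 of platelets, beside 3.56% of all genes with more than 12 counts. The bile duct marker Krt19 was at 4.87 and 2.74 CPM in the OUT samples, within the 0.366 to 6.07 CPM of the others. Kidney markers summed to at most 1.51 CPM and pancreatic markers to at most 0.453 CPM in any library, with Umod and Slc34a1 of the kidney at 0 in all. The part of these cell markers in the levels of the clotting factors was not tested.

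Between the AVF and sham groups, 6 of the 10 genes rose, namely Fga, Fgb, Fgg, F2, F9 and F10, and none fell. By edgeR's quasi-likelihood test with Benjamini-Hochberg adjustment over 15912 genes, the adjusted p value was 0.0233 for Fga, 0.0193 for Fgb, 0.0222 for Fgg, 0.0244 for F2 and 0.0269 for F9. Fga, Fgb, Fgg, F2 and F9, and also F11 and F12, were under 1 CPM in every nAVF and sham library. They passed the filter, more than 1 CPM in at least 2 libraries, through the 2 OUT samples alone. Their p values thus do not show a rise across the AVF group. To be called, a gene had to change at least 2-fold at an adjusted p value below 0.05, and 3.37% of all genes tested were called higher. F10 had a log2 fold change of 2.69 ± 0.74 (SE, adjusted p value = 0.0322), from 8.76 ± 11.1 CPM in AVF to 1.35 ± 0.851 CPM in sham (SD, n = 6 each), and 5 of 6 AVF samples were above every sham sample. F12 (0.0819), F11 (0.0844), F7 (0.0679) and F5 (0.315) did not pass.

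The fitted fold changes of genes with hardly any counts in sham depend on the small count that the model adds, so ratios of pooled counts are given for them. Fga was 1477-fold higher in AVF than in sham (counting interval 909 to 2585), Fgb 3801-fold (1628 to 11707), Fgg 2612-fold (1200 to 7118), F2 479-fold (220 to 1307) and F9 159-fold (83.4 to 348). Nearly all of the AVF counts of these genes came from the 2 OUT samples. For Fgb, Fgg and F9, no sham library passed the limit of detection, so the size of their ratios is uncertain. F12 was at least 21.7-fold and F11 at least 10.8-fold higher. With these 2 at their bound, the median of the ratios over the 10 genes was at least 90.3-fold. The median of the fitted log2 fold changes, a separate quantity, was 8.31. Most of the 10 genes passed the filter through the OUT samples alone, so this median does not describe the AVF group as a whole. In nAVF against sham, the median over the 8 genes tested was 0.63.

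The calls rested on the 2 OUT samples. Of the 6 AVF samples, 2 were above every sham sample for F2, Fgg, F11, F12, F5 and F7, 3 for F9 and Fga, and 4 for Fgb. For F9 and Fga, the sample beyond the OUT group was #07, on 3 and 6 counts. Sham samples reached 3 and 7 counts for these genes, and #07 had the smallest scaled library size (9267421). With both OUT samples left out, 0 of the 8 genes still tested were called. The call of F10 was lost without either of them, with a log2 fold change of 2.59 without sample #05 (adjusted p value = 0.0612) and 1.73 without sample #09 (adjusted p value = 0.0631). The count also fell to 3 without sham sample #22, where Fga, F9 and F10 were lost, and to 3 without sham sample #23, where F7 was called (3.81, adjusted p value = 0.0132) and Fgb and Fgg kept. F2 and F9 were lost without sham sample #16, and F10 alone without #17, #18 or #19, with adjusted p values of 0.0523 to 0.0594.

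Between the nAVF and sham groups, 0 of the 8 genes that could be tested were called by edgeR's quasi-likelihood test, with 0 at an unadjusted p value under 0.05, and 0 by edgeR's exact test and by DESeq2. Of the 22059 genes tested, 1.99% were called. F11 and F12 had no counts in these 10 libraries. These p values do not account for the choice of the 4 samples by their expression. F5 was at 15.5 ± 3.47 CPM in nAVF (n = 4) and 18.8 ± 13 CPM in sham (n = 6), a log2 fold change of -0.29 ± 0.37 (SE, edgeR adjusted p value = 0.696). It turned to 0.18 without sham sample #16 (adjusted p value = 0.605).

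F10 was at 2.66 ± 1.03 CPM in nAVF and 1.35 ± 0.851 CPM in sham, a log2 fold change of 0.94 ± 0.44 (edgeR adjusted p value = 0.24), with 3 of 4 nAVF samples above every sham sample. F7 was at 1.33 ± 0.342 CPM in nAVF and 0.423 ± 0.64 CPM in sham, with a log2 fold change of 1.62 ± 0.83 (edgeR adjusted p value = 0.278). Without sham sample #23, the one at 1.7 CPM, the change of F7 was 2.92 and was called (adjusted p value = 0.0401), and no other gene of the 10 was called without any 1 of the 10 samples. For F2, F9, Fga, Fgb and Fgg the 2 groups lay at 0 to 8 counts per library, and a difference was not detectable at this depth.

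**Figure D3:**
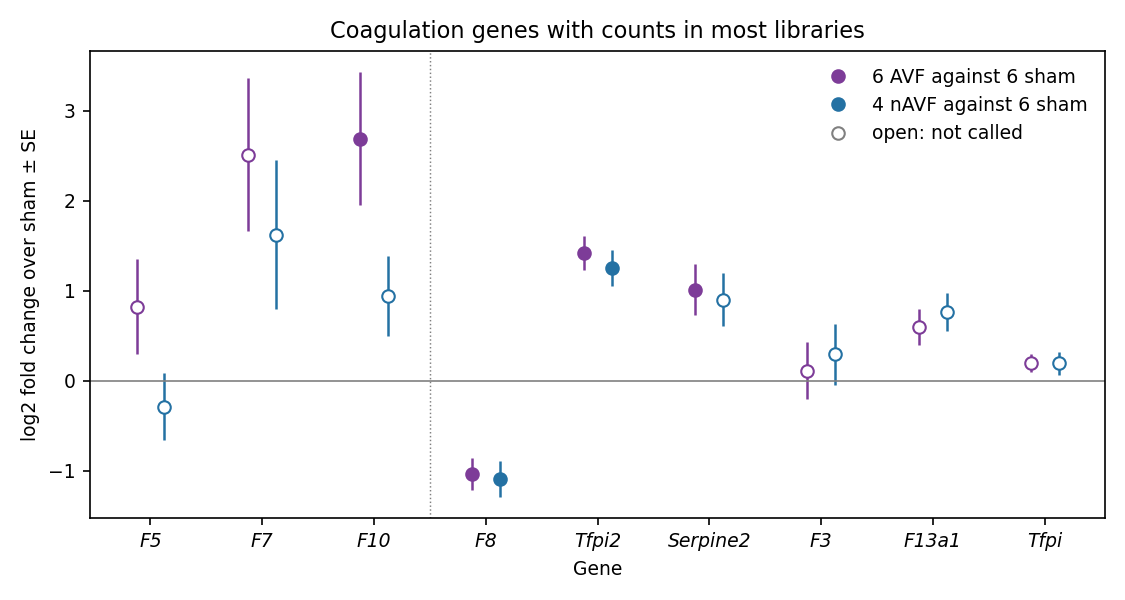
Fitted log2 fold change ± SE over sham for F5, F7 and F10 and, to the right of the dotted line, for 6 other coagulation genes, in all 6 AVF samples and in the 4 nAVF samples, with filled points for called genes. F10 is filled in the comparison of all AVF samples alone, at 2.69 against 0.94 in nAVF, and F8 lies near -1 in both.

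Platelet and macrophage markers were set beside F5 and F10 in the 10 libraries without the OUT samples. The platelet list (7 genes such as Ppbp, a chemokine of platelet granules, and Gp6, a collagen receptor) summed to 219 CPM in sham sample #16 and to 22.1 to 77.9 CPM in the other 9, so that the sample with the most F5 also had the most platelet RNA. Over these 10 libraries, the genes with the pattern most like that of F5 were Gm43254, Itgb3, an integrin chain of platelets and other cells, and Mpig6b, a receptor of megakaryocytes and platelets, with a Pearson's r of 0.925, 0.920 and 0.918 of log2 CPM. Sample #16 was 1 of the 10 points. In the OUT samples, where F5 was higher still, the platelet list was at 72.9 and 19.3 CPM, within or below the range of the others.

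For F10 over the same 10 libraries, the most alike genes were Lilrb4b, Trem6l and Pira2 (r of 0.910, 0.903 and 0.895), of which Lilrb4b and Pira2 are immunoglobulin-like receptors of myeloid cells. The macrophage list (7 genes such as Cd68) summed to 1006 to 1615 CPM in nAVF and to 520 to 868 CPM in sham, and 0 of its 7 genes were called in nAVF against sham, while 6 had an unadjusted p value under 0.05. F10 was highest in sample #07, where the macrophage list was the lowest of the nAVF group. The part of platelet and macrophage RNA in F5 and F10 was not tested.

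**Figure D4:**
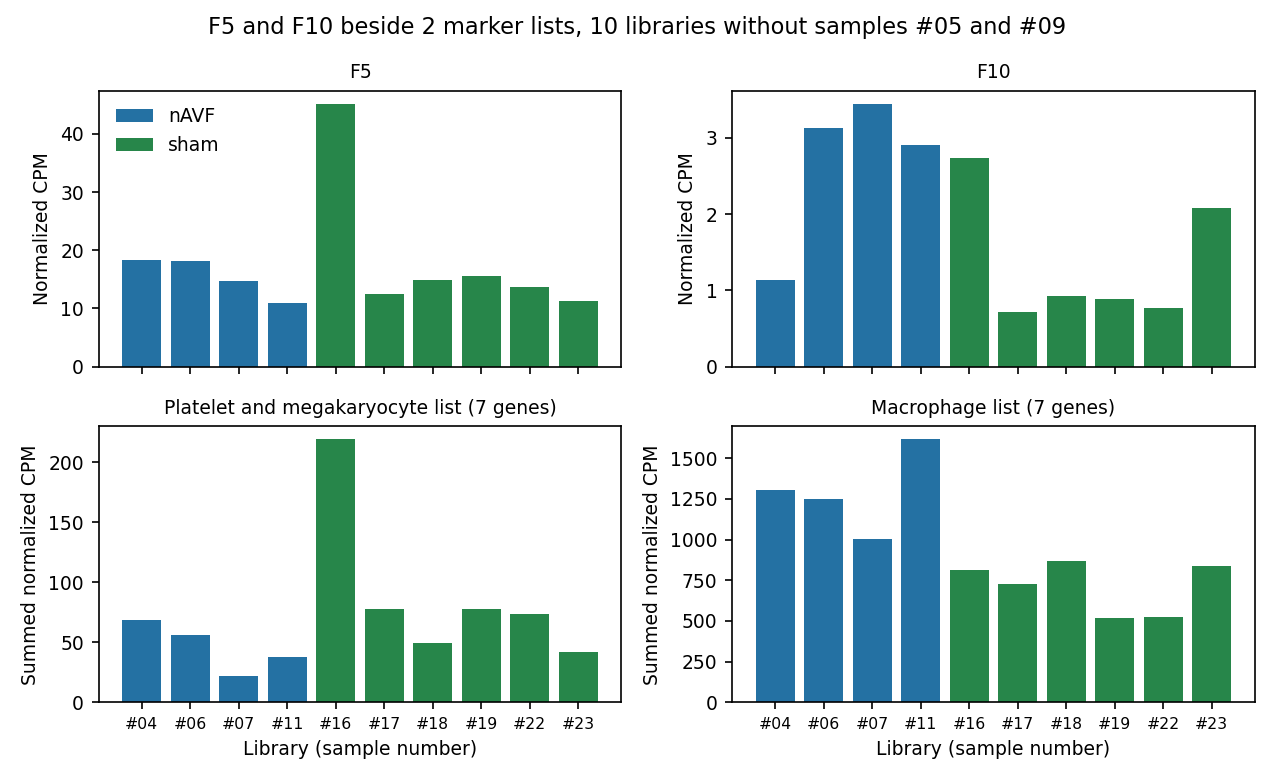
Normalized CPM of F5 and F10 (upper bars) and summed CPM of the platelet and macrophage lists (lower bars) in the 4 nAVF and 6 sham libraries. Sample #16 has the tallest bar for F5 (45.2) and for the platelet list (219), and macrophage bars are taller in each nAVF sample than in each sham sample.

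Over all 12 libraries, the patterns of the fibrinogen genes, F2, F9 and F10 were those of the OUT samples. Fgg was the gene most like Fga (r of 0.986) and most like Fgb (0.987), and Proc, the gene of the anticoagulant protein C, was most like Fgg (0.993) and F2 (0.987). Hpx, the gene of the plasma protein hemopexin, was among the 3 most like F9 (0.971), and Cfi, the complement factor I gene, was the most like F10 (0.962). In each of these patterns the 2 OUT samples stood apart from the other 10 points. F7 was most like Serpinb9b, Lipa and Calr (0.927, 0.926 and 0.920), and for F7 sample #05 lay close to sham sample #23. F5 was most like Bhmt1b, Mgam and Gsta2 (0.940, 0.938 and 0.910). F11 and F12, with counts in the OUT samples alone, had r of at least 0.9997 with their 3 most alike genes.

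No gene of the 10 was called between female and male mice. In the AVF group, 0 of 10 genes were called, with 0 at an unadjusted p value under 0.05 and 0 by DESeq2, where 0.0316% of the 22123 genes tested were called at a change of at least 1.5-fold. The OUT group had 1 mouse of each sex. F7 had the lowest p value, with a log2 fold change of female over male of 1.43 ± 0.67 (edgeR adjusted p value = 0.997). In the sham group, 0 of 8 were called, 0 had an unadjusted p value under 0.05 and DESeq2 called 0, beside 0.0818% of 21992 genes. F5 had a log2 fold change of -0.86 ± 0.47 there (edgeR adjusted p value = 0.607), with sample #16 among the males. For the interaction of operation and sex, 0 of 10 genes had an adjusted p value under 0.05, 0 an unadjusted one and DESeq2 called 0. Over all 22163 genes edgeR called 0%, with 1069 at an unadjusted p value under 0.05, and DESeq2 called 5. F11 and F12 had no counts in sham, so their interaction could not be estimated. For Fga, Fgb and Fgg its SE was 7.46 to 12 on the log2 scale, too wide to show a difference.

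Other coagulation genes of the liver moved with the OUT samples too. Of 14 such genes, 9 rose and none fell in AVF against sham, beside 3.37% of all genes called higher. Those that rose were Kng1 (kininogen), Hrg, Proc, Serpinc1 (antithrombin), Proz, Serpinf2 (antiplasmin), Plg (plasminogen), Klkb1 (prekallikrein) and Itih4. Except for Itih4, these passed the filter through the OUT samples alone, so their p values do not show a rise across the AVF group. All of these but Serpinc1 were under 1 CPM in every library outside the OUT group. Over the 14 genes, the median of the ratios of pooled counts was at least 87.2-fold with 3 genes at their bound. The median of the fitted log2 fold changes, a separate quantity, was 7.41. Of the list, 12 of the 14 were higher in both OUT samples than in all other libraries, beside 3.56% of all genes. Above every sham sample were 13 of the 14, beside 11.3%. Klkb1 was at 18.3 and 45.1 CPM in samples #05 and #09 and at 0 to 0.43 CPM elsewhere, and its call (adjusted p value = 0.0468) was lost without both OUT samples, where the change was -1.52, and without either OUT sample or any 1 of the sham samples (0.0661 to 0.0966). Serpinc1 was at 37.2 and 122 CPM, and at 0.141 to 1.29 CPM elsewhere, with an adjusted p value of 0.0221 by edgeR, or 0.0503 without sham sample #22. Itih4 was 1 of 3 genes of this list with more than 3 counts in every library, at 101 and 320 CPM in the OUT samples, 134, 39, 26.2 and 32.2 CPM in the nAVF samples and 10.5 to 27.3 CPM in the sham samples. It rose in nAVF against sham as well (log2 fold change 1.76 ± 0.42, edgeR adjusted p value = 0.0361). The median over the 12 genes of this list tested there was -0.44 on the log2 scale, and Itih4 was the 1 call. That call was lost without sample #04, the highest nAVF sample, where the change was 0.90, and without #06, #11, #16, #17, #19 or #22 (adjusted p values of 0.0512 to 0.078).

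The coagulation genes of the vessel wall and blood followed another pattern. Of 14, 2 rose and 1 fell in AVF against sham, beside 3.37% of all genes called higher and 1.4% called lower. The median log2 fold change was 0.28, and 1 gene was higher in both OUT samples than in all others, beside 3.56% of all genes. Anxa2 (log2 fold change 0.53, edgeR adjusted p value = 0.00392) and Plat (0.61, edgeR adjusted p value = 0.0197) missed only the 2-fold threshold. F8, the cofactor of factor IXa, which is made by endothelial cells, fell from 32.9 ± 8.14 CPM in sham to 16 ± 3.14 CPM in AVF (SD, n = 6 each), with a log2 fold change of -1.04 ± 0.18 (edgeR adjusted p value = 0.00326), and each AVF sample was below each sham sample. F8 was at 14.6 and 18.9 CPM in the OUT samples and 11.8 to 19.6 CPM in nAVF. It also fell in nAVF against sham, with a log2 fold change of -1.09 ± 0.20 (edgeR adjusted p value = 0.0105). With 1 sample left out the fold threshold was missed in AVF narrowly without #04, and without #11 (-0.96), #18 (-0.94) or #19 (-0.98), and in nAVF without #11 (-0.98) or #18 (-0.99), with adjusted p values of 0.00527 to 0.046.

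Tfpi2, an inhibitor of serine proteases, rose from 6.22 ± 1.73 CPM in sham to 16.7 ± 3.64 CPM in AVF (1.42 ± 0.19, edgeR adjusted p value = 0.000782), with 6 of 6 AVF samples above every sham sample. It also rose in nAVF against sham, by 1.25 on the log2 scale (edgeR adjusted p value = 0.00431). Serpine2, another protease inhibitor, rose by 1.01 ± 0.28 (edgeR adjusted p value = 0.0308), in 5 of 6 AVF samples above every sham sample, a call lost without sample #05 (0.91, adjusted p value = 0.061) and without each of 5 other samples and both OUT samples together.

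F3, the tissue factor gene, was at 98.1 to 199 CPM in AVF and 71.1 to 255 CPM in sham, F13a1, the A subunit of the fibrin-crosslinking factor XIII, at 189 to 454 and 145 to 224 CPM, and Tfpi, the inhibitor of the tissue factor pathway, at 52.1 to 72 and 41.9 to 61.5 CPM, and none of the 3 passed in either comparison. The groups overlapped for all 3. Of 5 genes for vitamin K and secretion, which serve the making of factors II, VII, IX and X and of factors V and VIII, 0 were called in AVF against sham by edgeR, with 4 at an unadjusted p value under 0.05, and 0 by the exact test or DESeq2. Of the 4, Lman1, Ggcx and Vkorc1 had adjusted p values of 0.00143, 0.0158 and 0.0305 by edgeR and missed the 2-fold threshold, with log2 fold changes of 0.40, 0.45 and 0.43. They summed to 406 and 468 CPM in the OUT samples, 385 to 440 CPM in nAVF and 334 to 369 CPM in sham. Over the 33 genes of these 3 lists, 12 were called in AVF against sham, and 3 without both OUT samples. The count was 6 without sample #05 and 7 without sample #09, and for single sham samples left out it was 5 (#16), 7 (#17), 6 (#18), 6 (#19), 4 (#22) and 5 (#23).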

How the data were processed

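RNA-seq of the IVC of 12 mice was analysed. The authors cleaned the reads (PRINSEQ, Trimmomatic 0.39) and used STAR 2.7.7a and RSEM 1.3.3 with GRCm39 and Ensembl genes. The deposited values are expected counts per gene without normalization. Expected counts share reads between similar genes. Here they were rounded, and names and coordinates came from GENCODE M39. The labels gave operation and sex, while the split into nAVF and OUT was taken from the study's text.

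Tests were edgeR's quasi-likelihood test (edgeR 4.0.16, R 4.3.3) with TMM, adjusted over all genes tested by the Benjamini-Hochberg procedure. Genes had more than 1 CPM in at least 2 libraries for AVF against sham, and more than 12 counts in all for the other comparisons and the shares of genes without overlap. The threshold on the log2 fold change was 1, or 0.585 between the sexes. The scripts were tested on simulated data. Shown CPM used 1 TMM scaling over the 12 libraries, ratios were of pooled counts per scaled library size with exact 95% intervals, and a group without counts was set at 3 counts per library. A group with some counts, but at most 3 in each library, kept its pooled counts.

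Alternatives were edgeR's exact test, DESeq2 1.42.0, relative log expression (RLE) size factors, other filters, unrounded counts, sex as a covariate, a replicate block, no fold threshold, no ribosomal RNA genes, and samples left out. A scaling to the hepatocyte list without Cyp2e1 was added after seeing the data. Same-numbered female and male AVF samples deviated together (r of 0.191 to 0.689, 3 pairs, from the numbers in the labels, the OUT samples sharing a number), and a block on them changed no call. The mice are separate animals.

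The 10 genes and all lists were chosen with earlier results of these data known. Genes named are the 10, those of the coagulation lists called in AVF or nAVF against sham, F3, F8, F13a1, Klkb1, Serpinc1 and Tfpi. Named too are markers that were highest or at 0, and genes among the 3 most alike. Alb, Krt19, Cd68, Lman1, Ggcx, Vkorc1, Fabp1, Apoc3, Ppbp, Gp6, Clec4f, Vsig4, Timd4, Anxa2 and Plat were named after their values were seen. Protein sequences were not used here, and 1 gene of the lists is not reported here.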

Additional observations from a re-analysis of the deposited data

Results flagged for a closer look

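Dixon's test was run on groups of 4 or 6 samples in which a library passed 3 counts. By it, 11 values of the 10 genes lay far from the rest of their group, over 20 groups searched. No rate expected by chance can be set beside this count. The genes moved together, many values were 0, and the nAVF samples were also searched within the AVF group. In the AVF group, 7 of these values were OUT sample #09, which the study had set apart by its expression. It was at 96.8 CPM for F2 (the other AVF samples 0 to 32), 7.35 CPM for F7 (0.906 to 1.8), 50.8 CPM for F9 (0 to 13.2), 14.2 CPM for F12 (0 to 4.04), 896 CPM for Fga (0 to 175), 709 CPM for Fgb (0 to 151) and 586 CPM for Fgg (0 to 123).

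In the sham group, F5 was at 45.2 CPM in sample #16 (the others 11.3 to 15.5), F7 at 1.7 CPM in sample #23 (0 to 0.426) and F2 at 0.212 CPM in sample #22 (0 to 0.0473), the last on 5 counts. In the nAVF group, Fga was at 0.647 CPM in sample #07 (0 to 0.0453), on 6 counts in the library with the most ribosomal RNA.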

How the results depend on the processing

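For AVF against sham, the count of 6 genes called was 9 by edgeR's exact test and 9 by DESeq2, which added F7, F11 and F12, and 0 without both OUT samples. It was 6 with RLE size factors, other filters, unrounded counts, sex as a covariate, no fold threshold or no ribosomal RNA genes, and 3 to 6 with single samples left out. For nAVF against sham it was 0 to 1 with single samples left out and 0 otherwise. Both comparisons of the sexes and the interaction gave 0 in every alternative. The 12 other coagulation genes became 3 without both OUT samples, 4 to 13 with single samples left out, and 11 to 17 otherwise. Without both OUT samples, the change of F5 was -0.28, of Fga -0.08 and of Klkb1 -1.52, and F5 in nAVF against sham ran from -0.40 to 0.18 with single samples left out, the 0.18 without sham sample #16.

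Both OUT samples were at least 2-fold above every nAVF sample for 9 genes and above every sham sample for 8, against 10 and 10 with any margin, with RLE size factors or without either OUT sample. The median log2 ratio of sample #09 to #05 of 1.88 became 0.58 scaled to the hepatocyte list and 0.41 without Cyp2e1 in it.

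Same-numbered mice of the same sex in AVF and sham did not deviate together in every pair (r of -0.15 to 0.266, 6 pairs), nor did those of nAVF and sham (-0.0993 to 0.249) or of female and male sham (-0.0408 to 0.188). With the replicate block, 6 genes were called in AVF against sham (F2, F11, F12, Fga, Fgb and Fgg), 0 in each other comparison, and 11 of the other coagulation genes. The block ended the calls of F9 (6.14, adjusted p value = 0.0549), F10 (2.02, 0.15), Serpinc1 (4.62, 0.0946) and Klkb1 (3.99, 0.251), and of Itih4 in nAVF against sham (1.40, 0.111). At this depth, levels under 0.127 to 0.324 CPM could not be compared.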
